A study of Mus musculus with 30 samples.

Results

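The genes of de novo fatty acid synthesis were followed in preputial glands, paired modified sebaceous glands of the male mouse, while the animals ate benzo[a]pyrene (BaP), a carcinogenic hydrocarbon of smoke and soot. They were 10 named genes, Acly, Acaca, Acacb, Fasn, Scd1, Scd2, Scd3, Elovl1, Elovl5 and Elovl6, of 18784 genes measured. Where a gene has several probe sets the one with the highest mean over all arrays stands for it, and each of the 10 had a single probe set. All 10 were kept, since no filter on low values was applied.

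The mice were males of 3 genotypes on a B6 background: Cyp1a1/1b1 double knockouts (DKO), which lack both BaP-oxidising cytochrome P450 enzymes CYP1A1 and CYP1B1, Cyp1a1 knockouts (KO) and wild type (WT). Mice ate about 12.5 mg/kg/day of BaP from an age of 6 weeks, and glands were taken after 0, 4, 8, 12 and 16 weeks. Each of the 15 groups had 2 mice, each on its own array, and only the week 0 mice had no BaP, so longer exposure also meant older mice. The study followed squamous cell carcinoma forming in the preputial gland duct, which is the tissue its labels name. The design sets out to compare the genotypes and, within each, the times.

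Cells build fatty acids in the cytosol from citrate that leaves the mitochondria. ATP citrate lyase splits it into acetyl-CoA, acetyl-CoA carboxylase makes malonyl-CoA, fatty acid synthase joins these units into palmitate with NADPH as reductant, and elongases and stearoyl-CoA desaturases lengthen and desaturate the product. SREBP1, released with the escort protein SCAP and held back by INSIG, is a main activator of these genes. Sebaceous cells run this pathway at a high rate to fill themselves with lipid before they burst into the duct.

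Values are log2 levels per probe set, so a difference of 1 is a doubling. Levels of different probe sets are not compared. Differences carry the standard error of the model, which gives each gene a spread shared by all 15 groups. A gene is called when limma's test has an adjusted p under 0.05 over all genes.

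The arrays differed in how wide their values were spread. The SD over all genes was 1.15 to 1.42 on 9 arrays and 1.70 to 2.08 on the other 21. The 9 low-range arrays were 8 of the 10 labelled DKO and replicate 2 of KO week 12. The remaining 2 of DKO, replicate 1 at week 0 and replicate 2 at week 12, were of normal range. The numbers in the array labels, 1 to 20 and 22 to 33, split the arrays almost as genotype does: those labelled DKO were numbered above 20 apart from 1, and all others up to 20 apart from 1 KO array. Genotype can therefore hardly be told apart from number range. Every comparison with DKO below rests on these arrays. For the differences over the 5 weeks, values without the low-range arrays and with the number range as a block follow in the same or the next paragraphs. Without the low-range arrays DKO keeps only weeks 0 and 12, so its differences from WT and KO then cover those weeks alone on both sides.

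The tissue carried sebaceous markers, though not all of those listed. Awat2, a wax ester synthase, had medians of 9.15 in DKO, 10.81 in KO and 10.83 in WT, and the lipid droplet protein gene Plin2 had 9.43, 11.01 and 11.43. Awat1, another of the listed sebocyte markers, was low (medians 4.10 in DKO, 3.86 in KO and 3.70 in WT). It was below the median of its own array in 9 of 10 DKO, 10 of 10 KO and 10 of 10 WT arrays. The exception was DKO week 12 replicate 1 (5.49). Far2 was low in KO and WT as well, with medians of 4.29 and 4.09, and had 5.07 in DKO. Awat1 and Far2 thus had higher medians in DKO than in WT, and the other sebocyte markers measured had lower ones. In tissue that holds several cell types, fewer cells of a type and less RNA per cell cannot be told apart.

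The sequences upstream of 4 members are shown because Acly, Fasn and Elovl1 were the 3 genes lower in KO than in WT, while Elovl5 was not called there. Each runs across the start of the gene, 300 bases in all, 5′ to 3′ on the gene's strand, from RefSeq on GRCm38.p6. Acly lies at chr11:100527951-100528250 on the minus strand, Fasn at chr11:120824498-120824797 on the minus strand, Elovl1 at chr4:118427843-118428142 on the plus strand (the first of its windows) and Elovl5 at chr9:77917115-77917414 on the plus strand. Capitals mark the motifs found: the CCAAT box (CCAAT), the GC box (GGGCGG) and the E-box (CACGTG), on either strand.
Acly: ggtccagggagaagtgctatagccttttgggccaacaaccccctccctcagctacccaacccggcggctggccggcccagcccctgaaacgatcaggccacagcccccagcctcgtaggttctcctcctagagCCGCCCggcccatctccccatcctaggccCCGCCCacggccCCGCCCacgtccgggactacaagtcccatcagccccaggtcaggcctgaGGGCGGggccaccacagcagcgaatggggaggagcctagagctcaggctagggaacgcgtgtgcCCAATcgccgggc
Fasn: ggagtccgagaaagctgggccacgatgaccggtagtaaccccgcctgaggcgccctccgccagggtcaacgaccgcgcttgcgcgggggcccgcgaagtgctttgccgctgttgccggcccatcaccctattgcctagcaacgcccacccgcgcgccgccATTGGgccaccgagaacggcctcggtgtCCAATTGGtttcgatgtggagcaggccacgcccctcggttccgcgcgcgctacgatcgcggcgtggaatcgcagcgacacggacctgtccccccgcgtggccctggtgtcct
Elovl1: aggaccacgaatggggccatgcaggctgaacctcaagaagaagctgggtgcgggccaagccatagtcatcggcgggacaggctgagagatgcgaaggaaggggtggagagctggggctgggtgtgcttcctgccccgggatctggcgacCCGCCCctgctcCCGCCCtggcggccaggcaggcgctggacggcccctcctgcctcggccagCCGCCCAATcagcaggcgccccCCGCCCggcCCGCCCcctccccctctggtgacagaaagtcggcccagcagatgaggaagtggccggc
Elovl5: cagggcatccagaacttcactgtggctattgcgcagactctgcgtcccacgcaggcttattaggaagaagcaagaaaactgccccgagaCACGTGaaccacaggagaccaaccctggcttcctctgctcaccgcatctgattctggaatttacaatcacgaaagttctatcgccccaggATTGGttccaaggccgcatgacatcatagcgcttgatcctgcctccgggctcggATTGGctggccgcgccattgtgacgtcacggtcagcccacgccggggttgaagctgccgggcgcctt

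Of the 10 genes 8 had a window, 9 windows in all, and none was given for Scd1 and Scd2. The Fasn window held 3 CCAAT boxes between 90 and 59 bases before the start, including an overlapping pair on opposite strands, and no GC box or E-box. The Elovl1 window held 5 GC boxes and 1 CCAAT box, which overlaps one of the GC boxes, and the Acly window 4 GC boxes and 1 CCAAT box. Elovl5 had the only E-box, 161 bases before the start, and 2 CCAAT boxes. Over the 9 windows the CCAAT box was in 5 and the GC box in 3, against 37.4% and 35.7% of 32851 RefSeq windows of this length. The E-box was in 1, against 7.15% of all windows. The letters TCACNCCAC, a form of the SREBP site, were in none of the 9 and in 1.24% of all. By gene, the GC box was found at Acly and Elovl1, and the CCAAT box at Acly, Acacb, Fasn, Elovl1 and Elovl5. The windows of Acaca, Scd3 and Elovl6 held no match.

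In KO glands 3 of the 10 genes were lower than in WT over the 5 weeks, and none was higher. They were Acly, Fasn and Elovl1, the first enzyme of the pathway, its central synthase and an elongase of saturated and monounsaturated very long chains. Over all genes 3.94% were called lower and 0.383% higher in this comparison. The median difference of the 10 genes was -0.46, against 0.10 over all genes, and 8 of the 10 were negative.

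Acly, the ATP citrate lyase gene, ranged from 6.93 to 9.04 in the 10 KO arrays (median 8.30), against 8.60 to 9.22 in the 10 WT arrays (median 8.96). It was 1.74-fold lower in KO (-0.80 ± 0.18, adjusted p = 0.0107 by limma). The KO arrays overlapped WT because of week 8, where the 2 KO mice had 8.87 and 9.04, against 8.86 and 8.95 in WT. At week 0 the KO mice were far apart, at 6.93 and 8.44, and the WT mice had 8.97 and 9.22. At week 16 both KO mice stood at 7.67, and the WT mice at 8.70 and 9.15.

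Fasn, which encodes the synthase that assembles palmitate, ranged from 6.33 to 8.41 in KO (median 7.64), against 7.82 to 8.80 in WT (median 8.54). It was 1.83-fold lower in KO (-0.88 ± 0.20, adjusted p = 0.0141 by limma). Its pattern over the mice followed that of Acly in KO: 6.33 and 7.79 at week 0, 7.80 and 7.49 at week 4, 8.23 and 8.41 at week 8, 7.86 and 6.96 at week 12, and 7.28 and 7.33 at week 16. In WT Fasn was 8.80 and 7.84 at week 0, 8.72 and 8.68 at week 4, 8.66 and 8.61 at week 8, 7.82 and 8.20 at week 12, and 8.42 and 8.46 at week 16. Replicate 2 of WT week 0 and replicate 1 of WT week 12 were thus the lowest of WT, and they were also the lowest 2 WT arrays for Acacb (7.09 and 7.13).

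Elovl1 ranged from 6.10 to 8.87 in KO (median 8.52), against 8.99 to 10.05 in WT (median 9.26), so the 2 genotypes did not overlap. That separation was seen for 1.3% of all genes. Elovl1 was 2.00-fold lower in KO (-1.00 ± 0.24, adjusted p = 0.0184 by limma). The lowest value, 6.10, was the low-range array of KO week 12, and the next lowest KO array had 8.25. Without the low-range arrays the difference was -0.76 (adjusted p = 0.000136). Leaving out WT week 0 replicate 2, WT week 16 replicate 2 or KO week 0 replicate 1 instead gave adjusted p = 0.0549, 0.0502 and 0.0556.

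The acetyl-CoA carboxylases did not move alike in size. Acacb, which encodes the mitochondria-bound form whose malonyl-CoA also restrains fatty acid import for oxidation, differed by -0.58 ± 0.17 between KO and WT and missed the threshold (adjusted p = 0.0553). Acaca, the cytosolic form that feeds synthesis, differed by -0.11 ± 0.31 (adjusted p = 0.844), with KO from 5.62 to 8.20 and WT from 7.47 to 8.00. The 5.62 was again the low-range KO array, and the other 9 KO arrays lay between 7.26 and 8.20. The difference between the 2 carboxylases was not tested.

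Among the desaturases, which put the double bond into stearate and palmitate, Scd1 was not called. It stood between 12.37 and 12.68 in KO and between 12.25 and 12.68 in WT (0.06 ± 0.25, adjusted p = 0.892), at or above the 99.9th percentile of the genes on each of these arrays and at most 0.84 below the brightest gene. Whether the top of the scale hides a difference was not tested. Scd3 differed by -0.54 ± 0.18 (adjusted p = 0.0877) and Scd2 by -0.30 ± 0.19 (adjusted p = 0.355). The Scd genes are close paralogs that lie side by side, so a probe set may also read a relative. Of the other elongases, Elovl5, which lengthens polyunsaturated chains, differed by 0.00 ± 0.25 and Elovl6, which takes palmitate to stearate, by -0.37 ± 0.21 (adjusted p = 0.994 and 0.303).

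The count in this comparison moved with the treatment of the arrays. Without the low-range arrays, here the same arrays as numbers 1 to 20, 5 genes were lower: Acly (-0.72), Fasn (-0.79) and Elovl1 as above, and also Acacb (-0.52, adjusted p = 0.0176) and Scd3 (-0.53, adjusted p = 0.00126). In that fit 12.1% of all genes were called lower. After quantile normalization only Elovl1 was called (-0.90), with 0.49% of all genes lower, while Acly (-0.58) and Fasn (-0.63) had adjusted p = 0.230 and 0.203. Without KO week 12 replicate 1, which leaves the low-range array alone for that group, Acacb stood at -0.65, Scd3 at -0.55 and Elovl6 at -0.58.

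**Figure D1:**
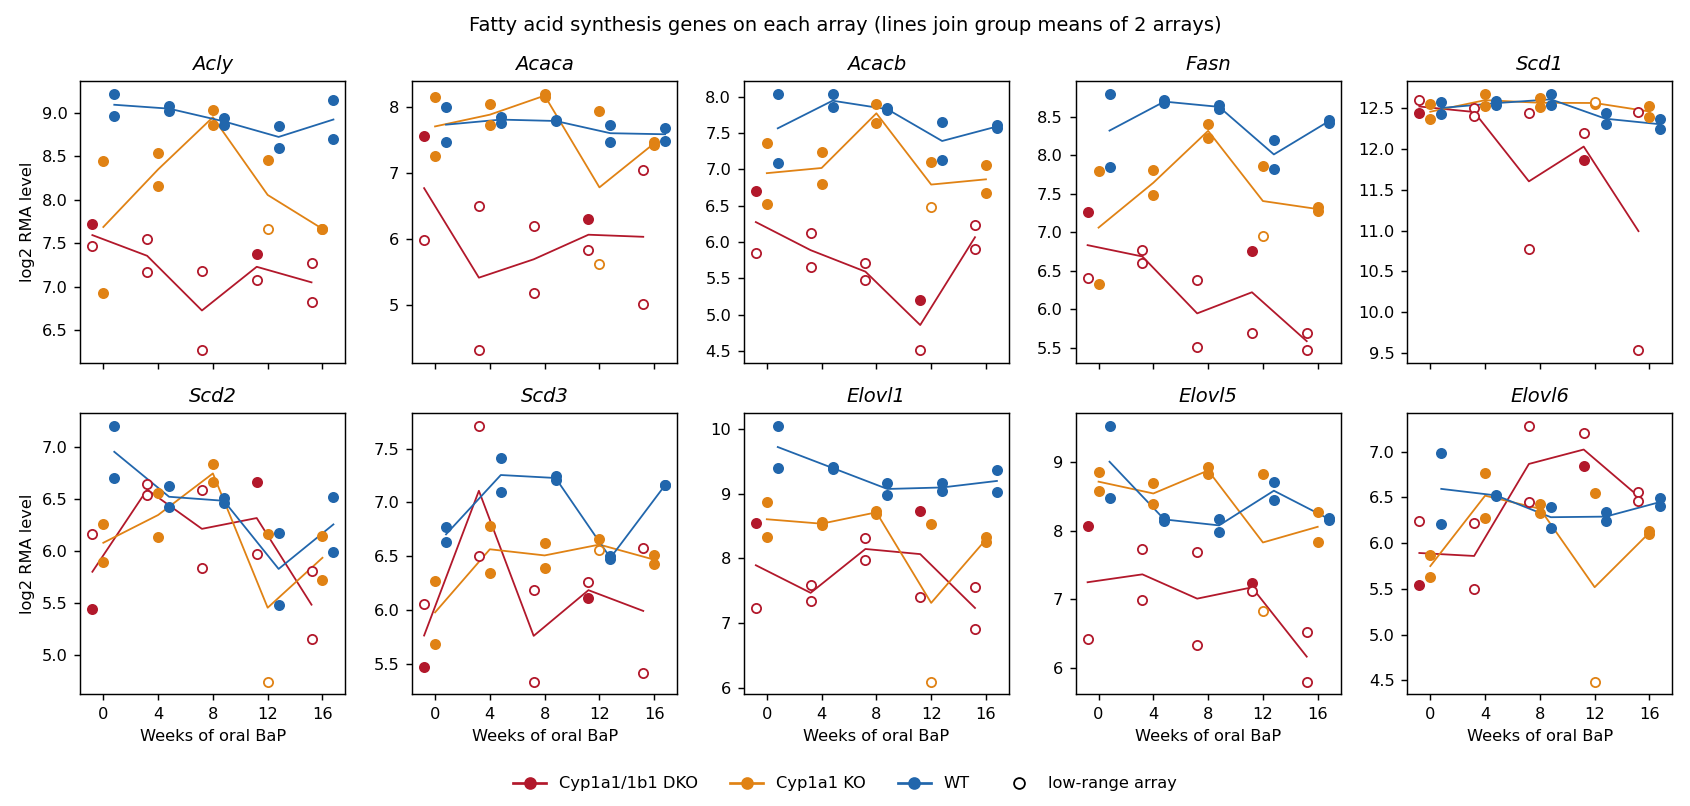
Each panel plots the log2 level of 1 gene (vertical axis) against weeks of oral BaP (horizontal axis) for every array, with lines through the means of the 2 arrays of a group and open points for low-range arrays. Acly, Acacb, Fasn and Elovl1 in DKO lie below every WT array in log2 level, though not by percentile within the array. KO week 8 stands near WT for Acly and Fasn.

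In the arrays labelled DKO 7 of the 10 genes were lower than in WT over the 5 weeks and none was higher. They were Acly, both carboxylases, Fasn, Scd3, Elovl1 and Elovl5. In this comparison 74.6% of all genes were called, 31% lower and 43.6% higher, so a call alone says little about a gene. The median of the 10 differences was -1.47, against 0.20 over all genes. The comparison shares the WT arrays with KO minus WT.

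Fasn had the largest of the 10 differences in the full set of arrays, though not without the low-range arrays (below). It ranged from 5.47 to 7.26 in DKO (median 6.39), against 7.82 to 8.80 in WT (median 8.54), and was 4.49-fold lower (-2.17 ± 0.20, adjusted p = 4.09e-08 by limma). By week the DKO mice had 7.26 and 6.40 at week 0, 6.60 and 6.77 at week 4, 6.38 and 5.51 at week 8, 5.69 and 6.75 at week 12, and 5.47 and 5.70 at week 16. No DKO array reached the lowest WT array.

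Acacb ranged from 4.52 to 6.70 in DKO (median 5.78), against 7.09 to 8.04 in WT (median 7.73), 3.80-fold lower (-1.93 ± 0.17, adjusted p = 2.46e-08). Acly ranged from 6.27 to 7.72 in DKO (median 7.23), against 8.60 to 9.22 in WT, 3.36-fold lower (-1.75 ± 0.18, adjusted p = 1.04e-07). Elovl1 ranged from 6.92 to 8.73 in DKO (median 7.57), against 8.99 to 10.05 in WT, 2.89-fold lower (-1.53 ± 0.24, adjusted p = 1.50e-05). With Fasn these were the 4 genes whose DKO and WT arrays did not overlap in log2 level, a separation downwards that 7.82% of all genes showed. By percentile among the genes of its own array, each of the 4 did overlap. The highest DKO and lowest WT percentiles were 85.1 and 83.9 for Fasn and 76.3 and 76.0 for Acacb. For Acly they were 93.8 and 90.9, and for Elovl1 96.0 and 94.0.

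Acaca varied more among the DKO mice than any other member except Scd1, from 4.32 at week 4 to 7.56 at week 0, against 7.47 to 8.00 in WT. It was 3.28-fold lower (-1.71 ± 0.31, adjusted p = 6.59e-05). DKO week 0 replicate 1, a normal-range array, was the only one inside the WT range. Elovl5 ranged from 5.79 to 8.07 in DKO, against 7.98 to 9.53 in WT, 2.66-fold lower (-1.41 ± 0.25, adjusted p = 4.18e-05). Scd3 was 1.75-fold lower (-0.81 ± 0.18, adjusted p = 0.000373), although replicate 2 of DKO week 4 had 7.71, above all WT arrays (6.47 to 7.41).

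The other 3 genes were not called between DKO and WT. Scd1 lay between 12.20 and 12.60 in 7 of the 10 DKO arrays, and at 11.87, 10.77 and 9.54 in week 12 replicate 2, week 8 replicate 2 and week 16 replicate 1. Its difference was -0.55 ± 0.25 (adjusted p = 0.0519 by limma). It was -0.72 without DKO week 8 replicate 1 and -0.84 without DKO week 16 replicate 2, each the higher mouse of a pair far apart. The 2 arrays lowest in Scd1 were also lowest in sebaceous markers, with Awat2 at 7.04 and 5.04 and Plin2 at 7.48 and 6.91. The other DKO arrays had Awat2 between 8.24 and 10.68. Scd2 differed by -0.33 ± 0.19 (adjusted p = 0.119). Elovl6 had equal means (0.00 ± 0.21, adjusted p = 0.991) but ranged wider in DKO, from 5.50 to 7.28, against 6.17 to 6.98 in WT. At weeks 8 and 12 both DKO mice lay above both WT mice in Elovl6, as 42.8% and 40.4% of all genes did, and at week 4 both lay below (34.8%).

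**Figure D2:**
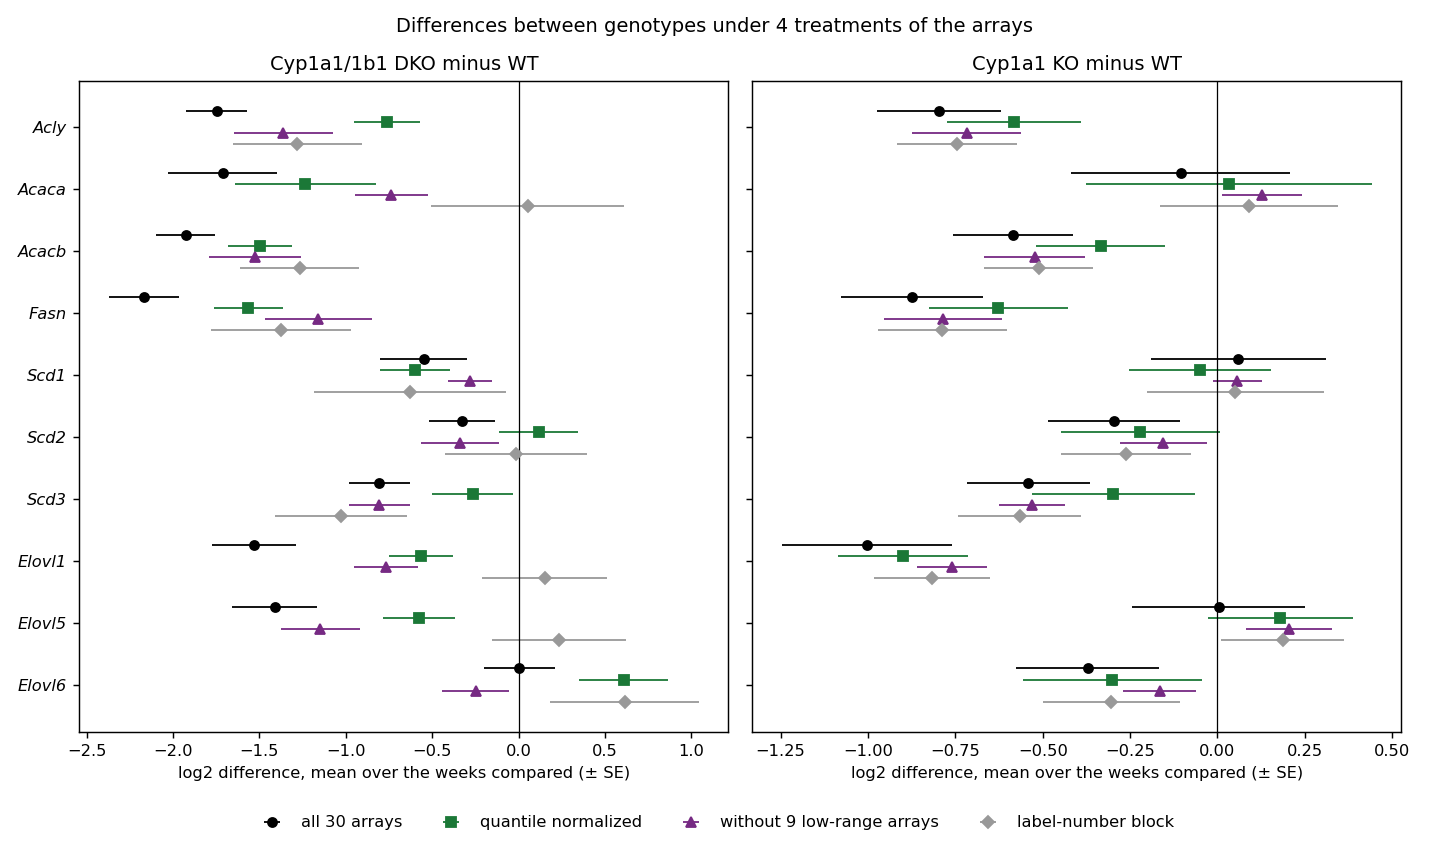
The log2 difference of each gene with its SE is drawn for DKO minus WT (left) and KO minus WT (right), with 1 marker for each of 4 treatments of the arrays. The KO differences of Acly, Fasn and Elovl1 stay between -1.00 and -0.58 under all 4, while the DKO differences of Acaca, Elovl1 and Elovl5 turn to 0.05, 0.15 and 0.23 with the number block.

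Much of the DKO difference depended on the arrays used. Without the low-range arrays, where DKO has 1 array at week 0 and 1 at week 12, the same 7 genes were called, with 16.2% of all genes lower. That fit compared DKO with WT over those weeks alone, so the weeks as well as the arrays differ from the full set. The differences of the 7 genes were then -1.16 for Fasn, -1.53 for Acacb, -1.36 for Acly and -0.77 for Elovl1. Those of Acaca, Elovl5 and Scd3 were -0.74, -1.15 and -0.81. After quantile normalization 7 genes were called (18.4% of all genes lower), Scd1 (-0.60) in place of Scd3 (-0.27, adjusted p = 0.386). Fasn then stood at -1.57, Acacb at -1.50 and Acaca at -1.24. Acly (-0.76), Elovl5 (-0.58) and Elovl1 (-0.56) moved by over 1.5 times. With the number range as a block none of the 10 was called, and 0.479% of all genes were lower. Fasn, Acly and Acacb then stood at -1.38, -1.28 and -1.27 (adjusted p = 0.111, 0.107 and 0.0794), and Acaca (0.05), Elovl1 (0.15) and Elovl5 (0.23) changed sign. The block rests on the KO week 12 and DKO week 0 groups, which hold both ranges, and within numbers 1 to 20 the only DKO array is 1 of week 0. Against WT of that week it had Scd2 at -1.52, Acly at -1.38, Scd3 at -1.24 and Fasn at -1.06. Acaca stood at -0.17 and Scd1 at -0.06. With 1 DKO array, the spread in that fit comes from the other groups.

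**Figure D3:**
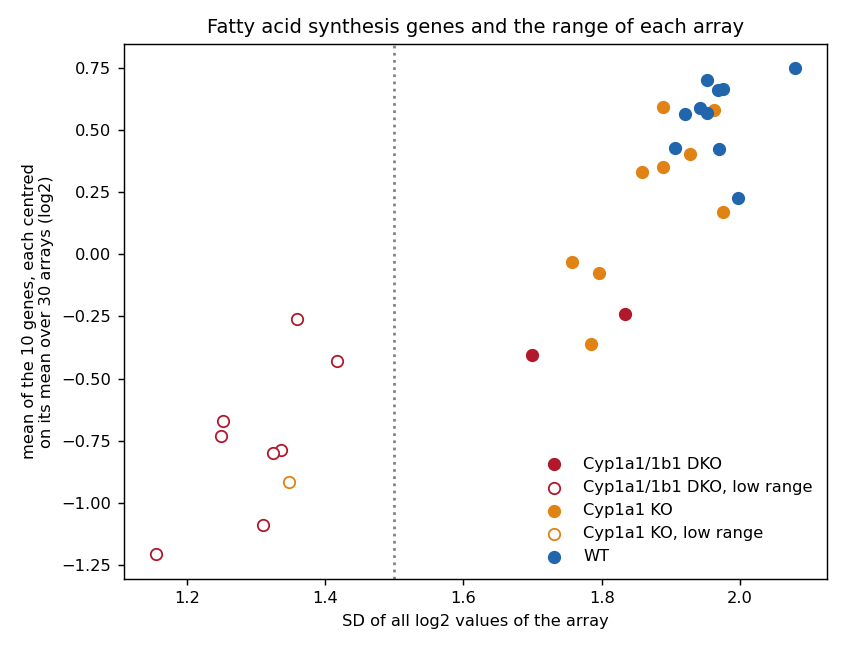
The mean of the 10 genes on each array, each gene centred on its mean over the 30 arrays (vertical axis, log2), is plotted against the SD over all genes on that array (horizontal axis), with a dotted line at 1.5. The 9 low-range arrays, open points, lie left of the line and have means below those of all WT arrays. The 2 normal-range DKO arrays also lie below all WT arrays, as do KO week 0 replicate 1, KO week 4 replicate 2 and both KO arrays of week 16.

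The mean levels of other marker lists differed with genotype as well, though not every marker or array followed. The mean level of the 10 sebocyte markers measured ranged from 5.61 to 7.81 in DKO, from 7.51 to 8.29 in KO and from 8.22 to 8.67 in WT. Dgat2, Cidea and Mc5r were the 3 of 10 sebocyte markers lower in KO than in WT, at -1.14, -1.00 and -1.11, beside 3.94% of all genes. The mean of 9 cornified-layer markers ranged from 6.75 to 9.72 in DKO, 6.37 to 6.84 in KO and 6.10 to 6.75 in WT. For 10 neutrophil markers it ranged from 4.63 to 6.60 in DKO, 4.41 to 5.44 in KO and 4.06 to 4.64 in WT. The lower normal-range DKO value was 6.745 for cornified-layer and 4.635 for neutrophil markers, both inside the WT range. By median, Tgm1 (6.22 against 6.78) and Ltf (6.02 against 8.33) were lower in DKO than in WT, and the others of these lists higher. Among neutrophil markers S100a8 (8.31 against 3.58) and S100a9 (7.23 against 4.23) differed most. The 8 fat cell markers showed less, from 5.95 to 6.78 in DKO, 5.83 to 6.86 in KO and 6.10 to 6.62 in WT, with none called between KO and WT. The part of these cell types in the differences of the 10 genes was not tested.

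Between the 2 knockouts, 6 genes were lower in DKO than in KO: Acaca (-1.61 ± 0.31), Elovl5 (-1.42 ± 0.25), Acacb (-1.34 ± 0.17), Fasn (-1.29 ± 0.20), Acly (-0.95 ± 0.18) and Scd1 (-0.61 ± 0.25). Their adjusted p by limma ran from 7.81e-06 for Acacb to 0.0406 for Scd1, and 25.8% of all genes were lower. Elovl1, lower in both knockouts than in WT, differed by -0.53 ± 0.24 between them (adjusted p = 0.0653). No gene of the 10 separated the DKO from the KO arrays completely, and 0.0426% of all genes lay wholly lower. Acaca ranged from 4.32 to 7.56 in DKO, against 5.62 to 8.20 in KO, and Fasn from 5.47 to 7.26, against 6.33 to 8.41. The Scd1 call was lost in 16 of 20 fits that each left out 1 array. After quantile normalization Acaca (-1.27), Acacb (-1.16), Fasn (-0.94) and Elovl5 (-0.76) were called lower, with 13.8% of all genes, and Elovl6 higher (0.91), with 12.1%. Acly (-0.18, adjusted p = 0.523) and Scd1 (-0.55, adjusted p = 0.0508) were not called in that fit. Without the low-range arrays Acaca (-0.90), Acacb (-1.07) and Elovl5 (-1.13) were called, with 5.3% of all genes lower, and none was with the number block (0.0745% lower). Within 1 to 20 (0.016% lower) the comparison is 1 DKO array with KO of week 0, and within 22 to 33 (0.00532%) DKO of week 12 with 1 KO array. None was called in either, where the spread of a lone array is taken from the other groups.

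Of the 10 genes, 1 was called between DKO and WT at week 0, before BaP. Acly was 2.83-fold lower in DKO (-1.50 ± 0.40, adjusted p = 0.0378), with DKO mice at 7.72 and 7.47 and WT mice at 8.97 and 9.22. In that comparison 3.2% of all genes were called lower. That call was lost without either WT array (adjusted p = 0.0971 and 0.344) or without DKO week 0 replicate 2 (0.453). Without DKO week 0 replicate 1, the normal-range array, 1 low-range DKO array was set against 2 normal-range WT arrays. Acacb, Fasn, Elovl1 and Elovl5 then stood at -1.71, -1.92, -2.48 and -2.58. Genotype and array range cannot be told apart in that fit. Fasn (-1.49, adjusted p = 0.0598), Acacb (-1.29, 0.0560), Elovl1 (-1.82, 0.0568) and Elovl5 (-1.76, 0.0650) missed the threshold in the full set, and for each both DKO mice lay below both WT mice, as did 22% of all genes.

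During BaP feeding the number of the 10 genes lower in DKO than in WT was 5 at week 4, with 16.4% of all genes lower, and 5 at week 8 (13%). It was 3 at week 12 (6.74%) and 6 at week 16 (18.2%). None was higher. Acly, Acacb and Fasn were lower at each of these weeks. With the number block none of the 10 was called at weeks 4, 8, 12 or 16, and 0.0213%, 0.138%, 0.437% and 0.17% of all genes were lower. After quantile normalization the calls were Acacb at week 4 (4.07% of all genes lower), Acacb and Fasn at week 8 (3.42%), Acacb at week 12 (1.46%) and Fasn at week 16 (7.46%). As deposited, Fasn stood at -2.01 at week 4, -2.69 at week 8, -1.79 at week 12 and -2.86 at week 16, the last a 7.25-fold difference (adjusted p = 0.000350). Acacb was furthest from WT at week 12 (-2.53 ± 0.38), where the DKO mice had 4.52 and 5.20 and the WT mice 7.13 and 7.65. Acaca was called at weeks 4 and 8 (-2.40 and -2.10), Elovl1 at weeks 4 and 16 (-1.93 and -1.96), Scd3 at weeks 8 and 16 (-1.47 and -1.17) and Elovl5 at week 16 (-2.01). With single arrays left out the counts were 3 or 4 at week 4, 3 to 6 at week 8, 1 to 3 at week 12 and 3 to 7 at week 16.

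Within each genotype no gene of the 10 was called between weeks 4 to 16 and week 0, or between week 16 and week 0. In DKO 0.974% of all genes were called over weeks 4 to 16 and 4.04% at week 16. In KO and in WT it was 0% in both comparisons. At an unadjusted p under 0.05 by limma, 1 of the 10 passed over weeks 4 to 16 in DKO (Acacb), beside 16.2% of all genes, and 2 at week 16 (Fasn and Scd1), beside 22.1%. None passed in KO (1.37% of all genes over weeks 4 to 16 and 1.16% at week 16) or in WT (0.82% and 1.21%).

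In DKO, Fasn at week 16 was -1.25 ± 0.45 from week 0 (adjusted p = 0.110), with 5.47 and 5.70 against 7.26 and 6.40, so both later mice lay below both earlier ones, as for 14.9% of all genes. Of these arrays only the one at 7.26, replicate 1 of week 0, was of normal range. Leaving out DKO week 0 replicate 2 gave -1.68 for Fasn and -1.91 for Elovl5. Week 0 was then a single normal-range array and week 16 wholly low-range, so time and array range cannot be told apart in that fit. Scd1 at week 16 was -1.53 ± 0.56 (adjusted p = 0.112), from 1 mouse at 9.54 and the other at 12.45. Without the mouse at 12.45, which leaves the mouse at 9.54 alone at week 16, Scd1 stood at -2.99 at week 16 and -1.12 over weeks 4 to 16. Its standard error at week 16 then fell from 0.56 to 0.42, as the pair furthest apart (SD 2.06) no longer counted in the spread. Over weeks 4 to 16, Acaca differed by -0.97 ± 0.56, Fasn by -0.72 ± 0.36, Acacb by -0.67 ± 0.30 and Acly by -0.50 ± 0.31. Elovl6 (0.67 ± 0.36), Scd3 (0.50 ± 0.31) and Scd2 (0.35 ± 0.33) were on the other side of 0.

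Taking the normal-range DKO mice alone, 1 from week 12 and 1 from week 0, gave calls that the full set did not (4.21% of all genes lower and 3.68% higher). Acaca was lower (6.30 against 7.56; -1.27, adjusted p = 0.0350), Acacb was lower (5.20 against 6.70; -1.50, adjusted p = 0.0474) and Elovl6 was higher (6.84 against 5.54; 1.30, adjusted p = 0.0194). Each side is a single mouse, taken to vary like the mice of the other groups.

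**Figure D4:**
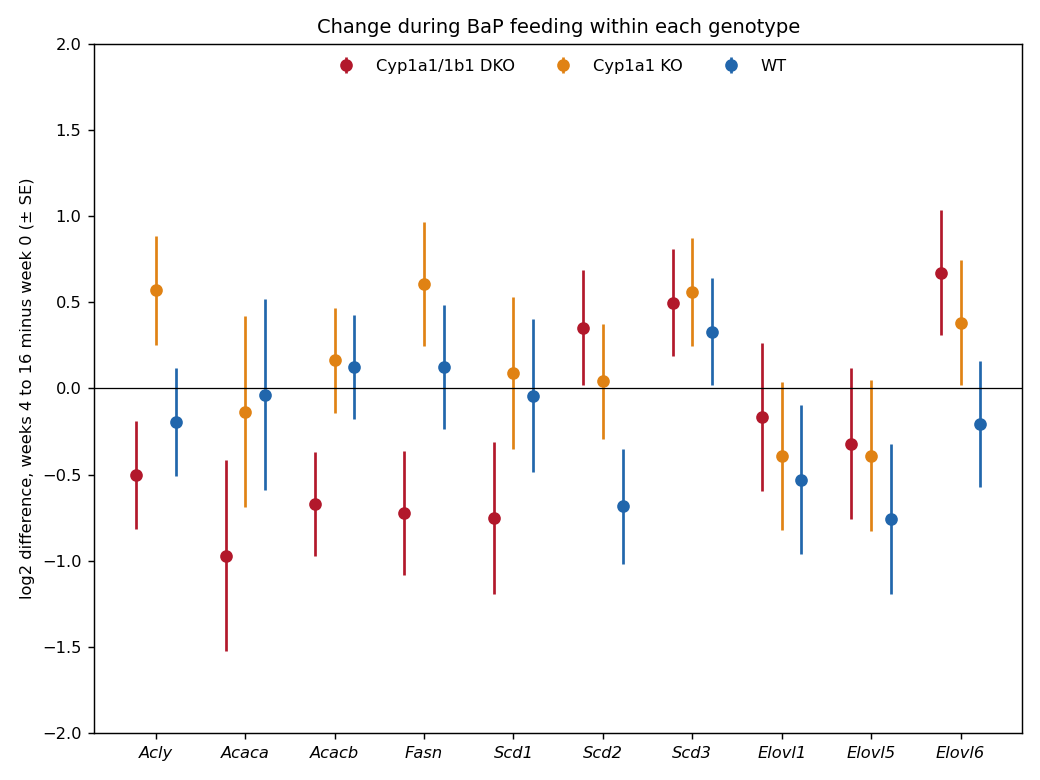
For each gene the log2 difference between weeks 4 to 16 and week 0 (vertical axis, with SE) is shown for DKO, KO and WT, from 8 later and 2 earlier arrays per genotype. None passed the threshold. Acly and Fasn lie below 0 in DKO and above 0 in KO.

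In KO, Acly and Fasn were 0.57 ± 0.31 and 0.61 ± 0.36 above week 0 over weeks 4 to 16, and replicate 1 of week 0 was the lowest KO array for both (6.93 and 6.33). Scd3 lay above week 0 in all 8 later KO arrays, from 6.35 to 6.78 against 5.68 and 6.27 (0.56 ± 0.31, adjusted p = 1). Such a separation upwards was seen for 1.25% of all genes. In WT, Scd2 lay below week 0 in all 8 later arrays, from 5.48 to 6.63 against 6.71 and 7.21 (-0.68 ± 0.33, adjusted p = 1), a separation downwards seen for 2.67% of all genes. Fasn and Acacb each differed by 0.12 in WT and Acaca by -0.04.

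The change itself was not shown to differ between genotypes. For DKO minus WT the 10 differences of change ran from -0.94 ± 0.79 (Acaca) to 1.04 ± 0.47 (Scd2), and none was called (lowest adjusted p = 0.992; 0.0373% of all genes). By limma without adjustment, only Scd2 of the 10 was under 0.05, beside 4.74% of all genes. For KO minus WT they ran from -0.10 (Acaca) to 0.76 (Acly), with none called and 0% of all genes. Without adjustment none of the 10 was under 0.05, beside 0.538% of all genes. Without the low-range arrays Scd2 (2.36, adjusted p = 0.0107) and Elovl6 (1.61, adjusted p = 0.0360) were called higher in the first of these, with 1.42% of all genes, from the 2 DKO mice named above.

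Of 8 measured genes that supply citrate, acetyl-CoA and NADPH to the pathway, 7 were lower in DKO than in WT and 4 in KO, and none was higher. Over all genes, 31% were lower and 43.6% higher in DKO, and 3.94% lower and 0.383% higher in KO, which is the background for this list and for the next 3. Slc25a1, the carrier that exports citrate from mitochondria, averaged 7.12 in DKO and 7.66 in KO, against 8.71 in WT (-1.59 ± 0.13 and -1.05 ± 0.13, adjusted p = 1.24e-08 and 0.000101). Its arrays lay wholly below WT in both knockouts, as 7.82% of all genes did in DKO and 1.3% in KO. Acss2, which makes acetyl-CoA from acetate, stood at -2.27 in DKO and -0.88 in KO, and Idh2, a mitochondrial NADPH source, at -1.70 and -0.63, all 4 called. Pgd, of the NADPH-making pentose phosphate pathway, stood at -2.33 in DKO, and at -0.66 in KO without a call (adjusted p = 0.0943).

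Of 15 other elongation and desaturation genes, 11 were lower and 3 higher in DKO than in WT, and 3 were lower in KO (31%, 43.6% and 3.94% of all genes). Elovl3, an elongase of sebaceous glands, stood at -2.19 ± 0.23 in DKO and -1.17 ± 0.23 in KO. Tecr, the last reductase of the elongation cycle, stood at -1.27 and -0.69, and Fads3, of the fatty acid desaturase family, at -1.87 and -1.14, all called. Elovl2, an elongase of polyunsaturated chains, was higher in DKO (1.15 ± 0.17), with means of 4.63 in DKO and 3.48 in WT, both below the median of every array. In KO it differed by 0.32 (adjusted p = 0.296).

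Of 14 regulators, 11 were lower and 1 higher in DKO than in WT, and 3 were lower in KO (31%, 43.6% and 3.94% of all genes). Insig1, itself an SREBP target, averaged 6.74 in DKO and 8.76 in KO, against 10.10 in WT (-3.36 ± 0.32 and -1.34 ± 0.32, adjusted p = 5.80e-08 and 0.0178). Scap stood at -1.88 in DKO and -0.90 in KO. Prkaa2 and Prkaa1 encode the catalytic subunits of AMP-activated kinase, which inhibits acetyl-CoA carboxylase. Prkaa2 stood at -2.40 in DKO and -0.84 in KO, both called, and Prkaa1 at -1.59 in DKO, called, and -0.27 in KO (adjusted p = 0.475).

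Of 15 measured genes of the opposite process, fatty acid oxidation, 12 were lower and 1 higher in DKO than in WT, and 4 were lower in KO (31%, 43.6% and 3.94% of all genes). Acadvl, the dehydrogenase that opens very long chain oxidation, stood at -2.40 ± 0.19 in DKO and -0.75 ± 0.19 in KO, and Acaa2, the thiolase that ends a round of oxidation, at -2.63 and -0.87. Slc25a20, the carnitine-acylcarnitine carrier, stood at -3.35 and -1.12, again called in both. Cpt2, which reforms acyl-CoA inside mitochondria, stood at -2.04 in DKO, called, and at -0.69 in KO (adjusted p = 0.0694). The median difference in DKO was -1.65 for the supply genes, -1.05 for the other elongation and desaturation genes, -0.61 for the regulators and -1.30 for the oxidation genes, beside -1.47 for the 10 synthesis genes.

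These counts also depended on the arrays. Without the low-range arrays the supply, elongation and desaturation, regulator and oxidation lists had 7, 8, 7 and 9 genes lower in DKO than in WT (16.2% of all genes) and 6, 6, 7 and 7 lower in KO (12.1%). After quantile normalization they had 7, 6, 6 and 9 lower in DKO (18.4%) and 1, 1, 0 and 0 in KO (0.49%). With the number block the only calls in DKO were Slc25a1 (-1.28, adjusted p = 0.0284) and Prkaa2 (-1.89, adjusted p = 0.0289), beside 0.479% of all genes, and in KO the lists had 4, 3, 3 and 5 lower (4.33%). Insig1 then stood at -1.78 in DKO (adjusted p = 0.183). Prkaa1 was not called in DKO without the low-range arrays (-0.43), nor was Elovl2 (0.38).

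Over time in DKO, 4 of these neighbouring genes were called, beside 0.974% of all genes over weeks 4 to 16 and 4.04% at week 16. Prkaa2 was lower over weeks 4 to 16 (-1.43 ± 0.35, adjusted p = 0.0474), and Scap (-1.73 ± 0.48, adjusted p = 0.0470) was lower at week 16. So were Hadh, a dehydrogenase of the oxidation cycle (-2.93 ± 0.63, adjusted p = 0.0140), and Fads6 (-1.31 ± 0.33, adjusted p = 0.0319), which were named after their values were seen. DKO week 0 replicate 1 was of normal range, and of the later DKO arrays only week 12 replicate 2 was. Time is therefore mixed with array range in these differences. With the number block Hadh was called (-2.51, adjusted p = 0.0443), and Prkaa2 (-1.15), Scap (-1.18) and Fads6 (-1.10) were not.

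The members were not equally alike across mice. As a description over 10 WT arrays, Acacb and Fasn had a correlation of 0.96 and Acly and Fasn one of 0.20. Over the 9 normal-range KO arrays, Acly and Fasn had 0.98 and Acacb and Fasn 0.88, and over the 10 DKO arrays the same pairs had 0.75 and 0.38. Fasn and Elovl5 had -0.76 in WT and 0.79 in DKO. Arrays of a genotype share weeks of BaP and, in DKO, their low range, and none of these correlations was tested.

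With the mean of the 10 genes, each centred, Fasn (0.95), Acly (0.93), Elovl5 (0.86) and Acacb (0.86) had the highest correlations over the 30 arrays and Elovl6 the lowest (0.19). Over the 21 normal-range arrays Acly (0.97) and Fasn (0.92) led, and Elovl6 (0.42) and Elovl5 (0.45) were last. Over the 9 low-range arrays Elovl5 (0.89) and Scd3 (0.79) led, and Acacb (-0.09) and Acaca (0.08) were last. Each of the 10 genes is itself part of the mean. The 8 genes outside the set most like this mean were Ahcyl2 (0.97 over 30 arrays), Slc3a2 (0.97), Cs (0.96), Aco1 (0.96), Cox18 (0.96), Dedd (0.96), Mdh2 (0.96) and Cpt1a (0.96). Cs, Aco1 and Mdh2 encode citrate synthase, cytosolic aconitase and mitochondrial malate dehydrogenase, and Cpt1a the carnitine palmitoyltransferase that admits fatty acids to mitochondria. Over the 21 normal-range arrays these 8 lay between 0.88 (Mdh2) and 0.96 (Aco1), and over the 9 low-range arrays between 0.63 (Dedd) and 0.90 (Ahcyl2).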

How the data were processed

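Per the labels' protocols, RNA from frozen preputial glands was amplified with a whole-transcriptome kit and labelled with biotin. The authors deposited log2 intensities for each probe set, made with RMA per the submitters' processing notes, whose version is not stated there. The array standard deviations differ, so the deposited values do not share 1 distribution. Probe sets numbered 21212, of which 18786 had 1 gene symbol, 6 several and 2420 none listed, which gave 18784 genes. No arrays held identical values. The number of arrays limits the precision.

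In limma 3.58.1 a linear model gave each of the 15 groups its own mean (R 4.3.3; residual degrees of freedom 15, prior 6.91). Tests were two-sided with Benjamini-Hochberg adjustment over all genes within each comparison, at a threshold of 0.05. The code was tested on simulated data. The labels say that each group is 2 mice.

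The members and lists were chosen with earlier results of these data known. List genes that were not matched included G6pdx, Nr1h2, Soat1, Flg, Cfd, Adrb3 and Cd68. Lists not described in the text marked basal keratinocytes, macrophages, skeletal muscle and fibroblasts, with 7, 6, 6 and 6 genes measured. Of these 5, 0, 0 and 1 were lower and 0, 1, 4 and 4 higher in DKO than in WT. Over all genes 31% were lower and 43.6% higher. Named genes were all members, up to 4 of each pathway list with the smallest adjusted p between DKO and WT, and the 8 genes most correlated with the members' mean. Predicted gene models were left out of the last. Alternatives were quantile normalization, median centring, a filter on low values, a trended robust variance, array weights, a fit of the groups compared alone, the replicate number as a block, the number range as a block, all probe sets averaged, and leaving out the low-range arrays or each array in turn. Fits within each number range were chosen after seeing the data.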

Additional observations from a re-analysis of the deposited data

How the results depend on the processing

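The direction of each called difference between KO and WT was the same under all alternatives run. With the labels' replicate number as a block, counts of called genes were 7 between DKO and WT, 3 between KO and WT and 6 between DKO and KO, and no count of any comparison changed. Between KO and WT, 3 genes were called. Quantile normalization gave 1, and array weights, a fit of the groups compared alone, leaving out the low-range arrays and numbers 1 to 20 gave 5 each. With each array left out the count was 2 to 6. Between DKO and WT the number block gave 0 of 7 called, with Acaca at 0.0515, Elovl1 at 0.150 and Elovl5 at 0.234, and leave-one-out counts were 7 to 8. Between DKO and KO the 6 calls became 0 with the number block and within numbers 1 to 20 or 22 to 33, and 3 without the low-range arrays, with 5 to 7 when single arrays were left out. Quantile normalization left 5, with Acly at -0.18 and Scd1 at -0.55 no longer called and Elovl6 added. Signs turned for Acly (0.0302) and Fasn (0.202) within 1 to 20, for Acaca (0.447) and Elovl5 (0.350) within 22 to 33, and for Elovl5 (0.0477) with the number block. Over time in DKO, 0 calls became 3 without the low-range arrays over weeks 4 to 16, and 1 at week 16 after quantile normalization. Single arrays left out gave 0 to 1 and 0 to 2. The difference of change between DKO and WT had 2 calls without the low-range arrays and 0 otherwise. In KO and WT no alternative gave a call over time.

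At single weeks, DKO minus WT gave 1 call at week 0. It gave 0 with quantile normalization, the robust variance, array weights, the groups compared alone or the number block, 4 with median centring, and 5 with the low-value filter. Single arrays left out gave 0 to 5. Week 4 had 5 calls, 1 after quantile normalization, 0 with the number block and 3 to 4 with arrays left out. Week 8 had 5, then 2, 0 and 3 to 6, in that order. Week 12 had 3, then 1, 0 and 1 to 3, and also 1 for the groups compared alone and 6 without the low-range arrays. Week 16 had 6, then 1, 0 and 3 to 7. Shares of all genes are given above for the full set at each week, and for quantile normalization and the number block at weeks 4 to 16. For the other fits of single weeks no share is given, so their counts say little about these genes. The cause was not tested for any of these.

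Over all genes, quantile normalization changed the split between KO and WT to 28 higher and 92 lower, from 72 and 741 as deposited. Between DKO and KO the split was 2272 and 2594 after it, and 6391 and 4838 as deposited. It also moved the median difference of all genes between DKO and WT to 0.06, against 0.20 as deposited. With the number block 160 genes were called between DKO and WT and 41 between DKO and KO, against 14011 and 11229 without it. With 2 arrays per group, and a spread that the narrow-range DKO arrays share with the others, a missed threshold does not show that levels were equal.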
